A study of Rattus norvegicus with 8 samples.

Results

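Cells that sense DNA damage or other stress stabilise the transcription factor p53, which switches on genes that halt division, repair DNA or kill the cell. Among these genes are Cdkn1a, which encodes the cyclin-dependent kinase inhibitor p21, and Mdm2, which encodes the ubiquitin ligase that degrades p53 and so closes a feedback loop. Related inhibitors of the kinases that drive the cycle, encoded by Cdkn1b, Cdkn2a and Cdkn2b, are held to other controls. In the kidney, p21 is known as a brake on tubule cells after injury, and Gdf15 is a secreted factor of the TGF-beta superfamily that many stresses induce. The genes described here are these cyclin-dependent kinase inhibitors and p53-responsive genes, 9 in the list, named by their known function; the rule that finds them uses gene symbols and no measured level. A probe set of the array belonged to the group if the platform annotation gave it 1 symbol and that symbol was in the list. This rule found 12 probe sets of 8 genes among 31042 probe sets of 14217 named genes. The probe set annotated to Bax, a mediator of cell death, also carries a second symbol, so Bax is not described.

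Kidneys came from female Sprague-Dawley rats aged 29 weeks. All ate a low-Si feed for 26 weeks. The Si deplete group drank low-Si water and had a daily Si intake of 0.17 mg per kg, whereas orthosilicic acid in the drinking water of the Si replete group raised the intake to 4.1 mg. The left kidney was ground whole, and each of the 4 arrays per diet held RNA from 1 rat, so that a difference between diets can come from RNA per cell or from the mix of cells, and these cannot be told apart. Kidneys are called deplete or replete here, with the replicate numbers of their labels. Values are log2 levels that the authors computed by gcRMA, a method that corrects background by the GC content of the probes. A mean log2 level under 4 is called dim here; 51.3% of the probe sets were dim, and 5 of the 12 described here were among them. A level of 1 probe set is not set against that of another, since probes differ in brightness.

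Of the 12 probe sets, 9 had a higher and 3 a lower mean in Si deplete than in Si replete kidneys, but none passed limma's moderated test at an adjusted p under 0.1 over all probe sets. At that threshold, 0.113% of all probe sets were higher and 0.0387% were lower. The widest differences were those of Cdkn1a on its brighter probe set (log2 fold change 1.21, standard error 0.52) and of Gdf15 (1.20, standard error 0.28). Gdf15 had the smallest p of the group (adjusted p = 0.164 from limma), and it and 1 of the 3 probe sets of Mdm2 were the only ones whose 4 Si deplete kidneys all lay above the 4 Si replete kidneys. This is 2 of 12, where 4.67% of all probe sets were separated in that direction. At an unadjusted p under 0.05, 3 of the 12 were higher and none was lower, against 7.81% and 7.14% of all probe sets. Without deplete kidney 1, 1 of the 12, Gdf15, was higher at that p and none was lower, against 6.48% and 5.66% of all probe sets. The median log2 fold change of the 12 was 0.19, or 0.32 over the 7 that were not dim, and that of all probe sets was -0.01. The median of the 12 was 0.10 without deplete kidney 1.

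**Figure D1:**
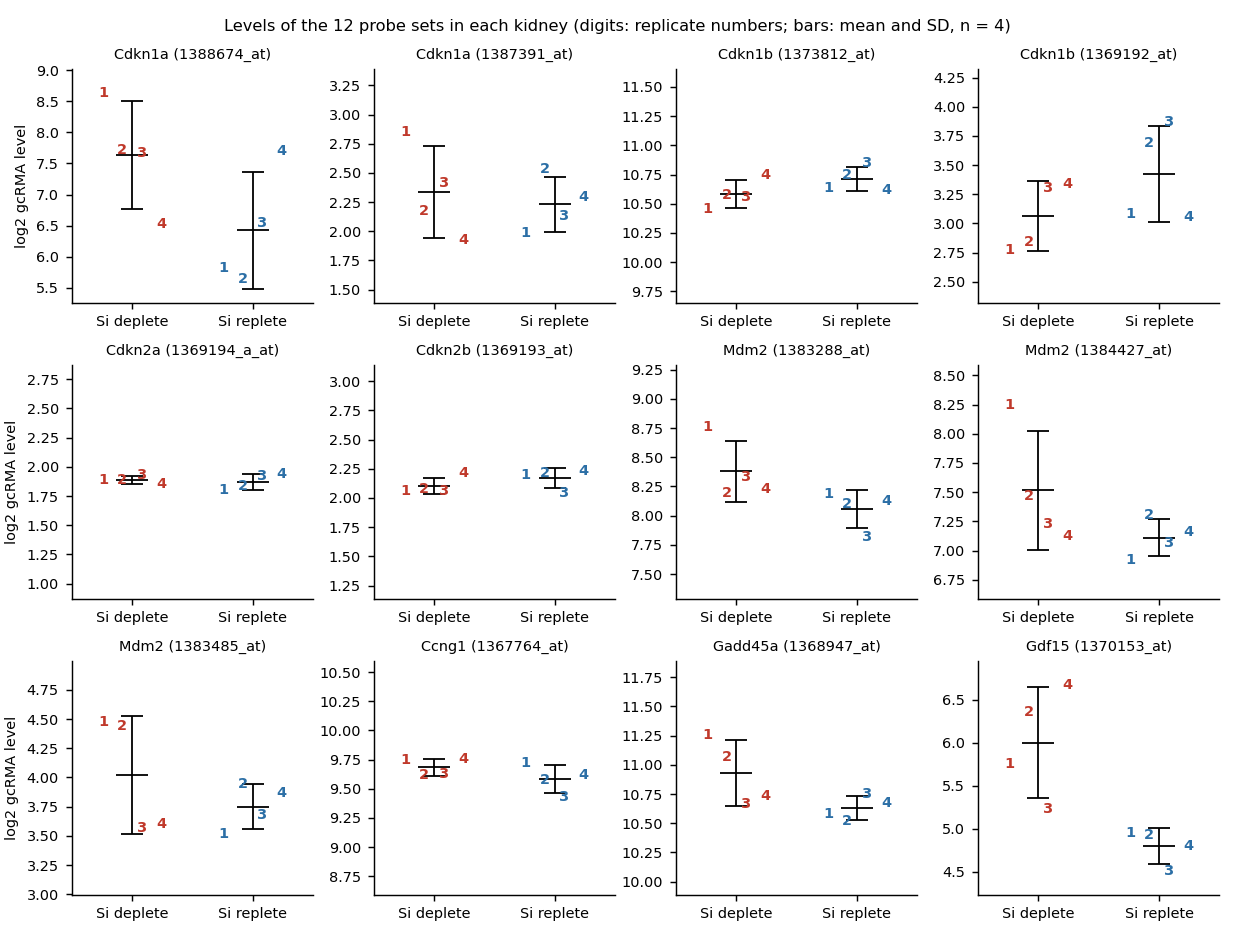
Log2 gcRMA level of each of the 12 probe sets in each kidney, by diet. Digits are replicate numbers, and each bar gives the mean with its SD over 4 kidneys; each panel has its own level range, which spans at least 2 log2 units. The diets separate for Gdf15 (5.23 to 6.67 against 4.50 to 4.95) and for 1383288_at of Mdm2, and overlap in the other panels.

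For Cdkn1a, the probe sets gave different pictures. On the brighter, 1388674_at, the log2 levels in deplete kidneys 1 to 4 were 8.64, 7.72, 7.66 and 6.53. In replete kidneys 1 to 4 they were 5.82, 5.63, 6.55 and 7.71. The spread within a diet was thus wide: replete kidney 4 stood at the level of deplete kidneys 2 and 3, and deplete kidney 4 at that of replete kidney 3. The means were 7.64 ± 0.86 (SD, n = 4) on the deplete and 6.43 ± 0.94 (SD, n = 4) on the replete diet, a 2.31-fold difference with a 95% interval of 1.02-fold to 5.23-fold. It did not pass over all probe sets (adjusted p = 0.326 from limma), and an exact 2-sided permutation test of the 4 against 4 arrays gave p = 0.171. The difference was 0.88 (standard error 0.50) without deplete kidney 1. The other probe set, 1387391_at, was dim, with a range of 1.93 to 2.85 on the deplete diet and of 1.98 to 2.53 on the replete diet, and its difference was 0.11 (standard error 0.20, adjusted p = 0.836).

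The inhibitor p27, encoded by Cdkn1b, holds resting cells out of the cycle. Its brighter probe set, 1373812_at, lay at 10.46, 10.58, 10.55 and 10.75 in deplete kidneys 1 to 4 and at 10.64, 10.75, 10.85 and 10.62 in replete kidneys 1 to 4. Levels were thus steady in all 8 kidneys, with 3 Si deplete kidneys just under the lowest Si replete kidney. The log2 fold change was -0.13 with a 95% interval of -0.33 to 0.08 (adjusted p = 0.532 from limma), so a difference of more than 0.33 in either direction lies outside that interval. The dim probe set of Cdkn1b, 1369192_at, differed by -0.36 (standard error 0.22, adjusted p = 0.461). Without replete kidney 3 these differences were -0.08 and -0.21. Cdkn1b was the only one of the 8 genes with more than 1 probe set whose probe sets all had lower means in Si deplete kidneys, and neither passed.

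Cdkn2a encodes p16 and, in another reading frame, the Mdm2 inhibitor ARF; Cdkn2b next to it encodes p15. Both genes are known for their rise in ageing and senescent cells. Each had 1 probe set, and both stayed dim in every kidney. Cdkn2a (1369194_a_at) lay between 1.85 and 1.93 in Si deplete and between 1.80 and 1.94 in Si replete kidneys, a difference of 0.02 (standard error 0.07, adjusted p = 0.938 from limma). For Cdkn2b (1369193_at) the ranges were 2.06 to 2.21 and 2.04 to 2.23, a difference of -0.07 (standard error 0.08, adjusted p = 0.716). The diets overlapped for both, and at such levels these probe sets do not show whether the transcripts were present.

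Mdm2 was measured by 3 probe sets, all with higher means in Si deplete kidneys. On the brightest, 1383288_at, deplete kidneys 1 to 4 stood at 8.76, 8.20, 8.33 and 8.22, and replete kidneys 1 to 4 at 8.19, 8.10, 7.82 and 8.12. The diets did not overlap (exact 2-sided permutation test, p = 0.0286, the smallest that 4 against 4 arrays allow), although deplete kidney 2 cleared replete kidney 1 narrowly. The difference was 0.32 (standard error 0.14), or 1.25-fold with a 95% interval of 1.00-fold to 1.56-fold, and it did not pass (adjusted p = 0.328 from limma). On 1384427_at the levels were 8.25, 7.46, 7.22 and 7.13 against 6.92, 7.30, 7.06 and 7.16, a difference of 0.40 (standard error 0.23, adjusted p = 0.43). The dim 1383485_at gave 4.48, 4.44, 3.57 and 3.60 against 3.51, 3.94, 3.68 and 3.87, a difference of 0.27 (standard error 0.23, adjusted p = 0.608). On each of the 3, deplete kidney 1 was the highest of the 8 kidneys. Without it, their differences were 0.20, 0.16 and 0.12.

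**Figure D2:**
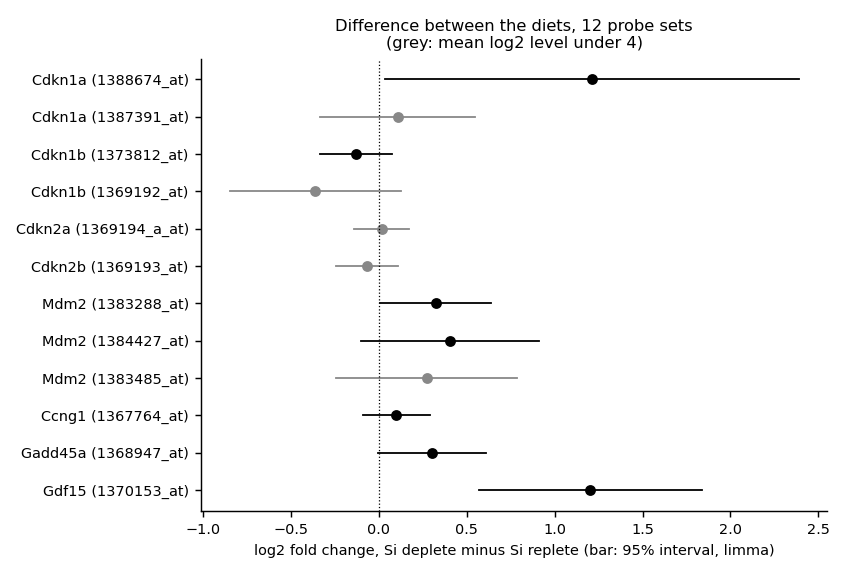
Difference in log2 level, deplete less replete, for each of the 12 probe sets; bars are 95% intervals from limma, and dim probe sets are grey. The intervals of Gdf15 (0.57 to 1.84), 1388674_at of Cdkn1a and 1383288_at of Mdm2 lie above 0, and none of the 12 passed at an adjusted p under 0.1.

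Gadd45a, a stress sensor that binds kinases of the cycle and of the p38 pathway, lay at 11.26, 11.07, 10.66 and 10.74 in deplete kidneys 1 to 4. In replete kidneys 1 to 4 its levels were 10.58, 10.52, 10.75 and 10.67. Deplete kidneys 1 and 2 were above all Si replete kidneys, and replicates 3 and 4 fell among them. The difference was 0.30 (standard error 0.14), or 1.23-fold, with an adjusted p of 0.344 from limma, and 0.19 without deplete kidney 1. Gadd45b and Gadd45g, its paralogs, differed by 0.05 (standard error 0.16) and 0.21 (standard error 0.35), with adjusted p-values of 0.916 and 0.814. The sign for Gadd45b turned when array medians were subtracted (-0.01), and the signs of both turned without deplete kidney 1 (-0.04 and -0.12). Map3k4 and Gadd45gip1, in the same list of 4 measured genes, had lower means on the deplete diet. Their differences were -0.12 (standard error 0.10) and -0.06 (standard error 0.08), and the median of the list was -0.005.

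Ccng1 encodes cyclin G1, an atypical cyclin that acts on Mdm2 and is among the most regular targets of p53. Its levels hardly varied, at 9.74, 9.62, 9.62 and 9.75 in deplete kidneys 1 to 4 and 9.72, 9.57, 9.43 and 9.62 in replete kidneys 1 to 4. The diets overlapped, and the difference of 0.10 (standard error 0.08, adjusted p = 0.61 from limma) had a 95% interval of -0.09 to 0.29, so a difference as wide as those of Cdkn1a and Gdf15 lies outside it. Without replete kidney 3 it was 0.05.

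Gdf15 (1370153_at) stood at 5.75, 6.35, 5.23 and 6.67 in deplete kidneys 1 to 4. Replete kidneys 1 to 4 were close to each other, at 4.95, 4.93, 4.50 and 4.80. Every kidney on the deplete diet was above every kidney on the replete diet, and the deplete kidneys were the more spread. The means were 6.00 ± 0.64 (SD, n = 4) and 4.80 ± 0.21 (SD, n = 4), a 2.30-fold difference with a 95% interval of 1.48-fold to 3.57-fold (exact 2-sided permutation test, p = 0.0286). Of all 31042 probe sets, 369 had a smaller p and 119 a larger log2 fold change. Gdf15 passed in limma without deplete kidney 3, its lowest deplete kidney (log2 fold change 1.46, adjusted p = 0.0627). With any other single array left out its difference was 0.98 to 1.29, with adjusted p-values of 0.155 to 0.366. Without deplete kidney 1 it was 1.29.

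The members did not peak in the same kidneys. Deplete kidney 1 was the highest of the 8 for Cdkn1a on both probe sets, for Mdm2 on all 3 and for Gadd45a, where it stood 1.61 (1388674_at), 0.54 (1383288_at) and 0.48 above the mean of the 8 arrays. For Gdf15 the highest was deplete kidney 4, 1.28 above that mean, followed by deplete kidney 2 at 0.95. In deplete kidney 4, Cdkn1a stood at -0.50 (1388674_at) and -0.36 (1387391_at) from its means, and the 3 probe sets of Mdm2 at 0.01 (1383288_at), -0.19 (1384427_at) and -0.28 (1383485_at). Deplete kidney 1 also stood apart on the first principal component of all probe sets, at 64.0 where the others lay at -25.9 to 19.2, and had the highest mean of a list of 12 tubule injury genes, at 1.38 above the mean of all arrays. That list was at 1.38, 0.25, 0.04 and 0.74 in deplete kidneys 1 to 4, and at -0.14, -0.84, -0.94 and -0.50 in replete kidneys 1 to 4. At an unadjusted p under 0.05, 10 of the 12 injury genes were higher, where 10.5% of all genes were, and without deplete kidney 1 again 10, where 8.67% of all genes were. The part of injury in the levels described here was not tested.

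**Figure D3:**
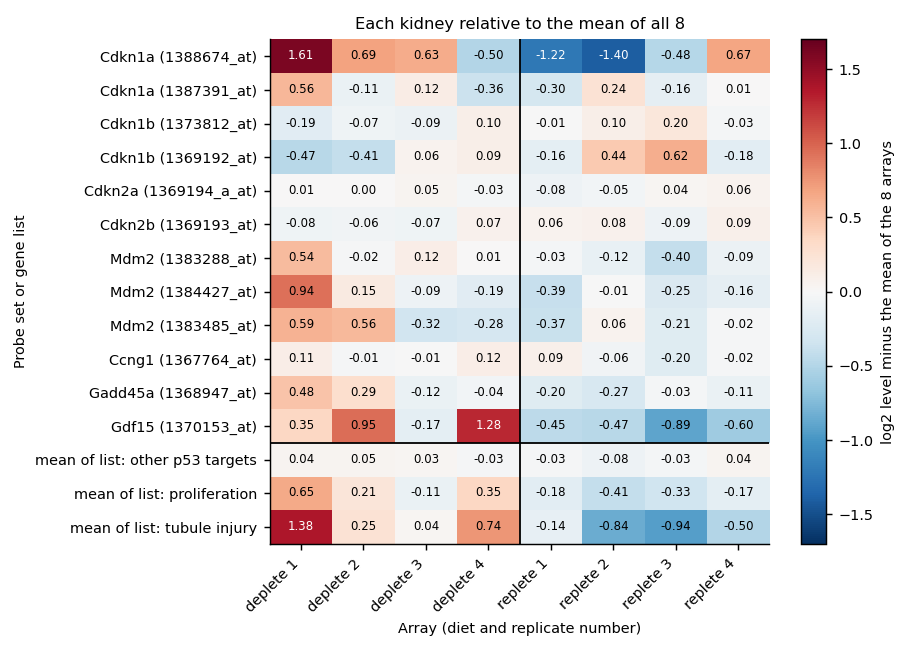
Log2 level of each of the 12 probe sets in each kidney minus its mean over the 8 arrays, with the same for the means of 3 gene lists; columns are arrays, red is above and blue below the mean. Cdkn1a (1388674_at), Mdm2 and Gadd45a are reddest in deplete kidney 1, and Gdf15 in deplete kidneys 4 and 2.

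The start of a gene is one place where p53 can bind, next to enhancers and introns. In the RefSeq table of promoters (build GRCr8), the 250 bases before the annotated starts were searched on both strands for the p53 half-site, a pattern of 10 bases that reads alike on either strand. A match was found in 3 of the 8 measured genes, Cdkn1a, Gadd45a and Ccng1, and in 6.64% of the 33469 windows of all genes. The log2 fold changes of these genes were 1.21 (1388674_at of Cdkn1a), 0.30 (Gadd45a) and 0.10 (Ccng1), and they were not tested against each other. The windows of the other measured genes, Gdf15 and Mdm2 among them, hold no match. Capitals mark the matching bases, read 5′ to 3′ on the strand of the gene, within 30 bases at chr20:7150721-7150750 (plus strand), chr4:97486828-97486857 (minus strand) and chr10:25685089-25685118 (minus strand):
Cdkn1a: tggctttcagGAACATGTCTtgacttgttc
Gadd45a: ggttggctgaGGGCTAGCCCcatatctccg
Ccng1: agacctgcccGGGCAAGCCTtggcattgaa
The match starts 201 bases before the annotated start of Cdkn1a, 48 before that of Gadd45a and 232 before that of Ccng1. The GC box GGGCGG, a motif of many promoters, was in 7 of the 8 genes, all but Cdkn1a, and in 30.5% of all windows, and the TATA box TATAAA in 1, Gdf15, and in 12.9% of all windows. These are matches of letters only, and binding was not measured.

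Other genes of the pathway were taken from lists of known function, with 1 value per gene from its brightest probe set. No gene of these lists passed at an adjusted p under 0.1, as 0.204% of all 14217 genes did. Of 22 other p53 targets, 3 were higher and none was lower at an unadjusted p under 0.05, where 10.5% of all genes were higher and 7.95% lower. With deplete kidney 1 left out, 2 of the 22 were higher and none was lower, where 8.67% of all genes were higher and 6.34% lower. Their median log2 fold change was 0.05, against 0.00 for all genes, with a range of -0.36 to 0.45, and was 0.02 without that kidney. Of the 22, 3 were higher and 1 was lower without overlap between the diets. Over all probe sets, rather than 1 per gene, 4.67% were higher in this way. The share of all genes was not computed for either direction, so the 2 are not on the same base. The smallest p-values were those of Phlda3, an inhibitor of Akt signalling (0.45, standard error 0.12, adjusted p = 0.187), and Bbc3, which encodes the killer protein PUMA (0.37, standard error 0.12, adjusted p = 0.236), both without overlap between the diets. Apaf1 of the apoptosome (0.45) and the kinase Plk2 (0.29) came next, at adjusted p-values of 0.308 and 0.339 from limma, but Apaf1 was at 0.26 without deplete kidney 1 and Plk2 at 0.17 without replete kidney 4.

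Among 11 regulators of p53 and kinases of the damage response, 3 were higher and 1 was lower at an unadjusted p under 0.05, with a median of 0.08. At that p 10.5% of all genes were higher and 7.95% lower. Without deplete kidney 1 the counts were 2 and 1, against 8.67% and 6.34% of all genes. The lower one was Ppm1d, a phosphatase that switches off the damage response (-0.36, standard error 0.11, adjusted p = 0.227 from limma), whose diets did not overlap. The share of all genes that were lower without overlap was not computed. Chek1, a checkpoint kinase on a dim probe set (0.72, standard error 0.28), Daxx (0.26, standard error 0.10) and Mdm4, a partner of Mdm2 in holding p53 down (0.51, standard error 0.23), had higher means at adjusted p-values of 0.284 to 0.332. Chek1 was at 0.44 and Mdm4 at 0.30 without deplete kidney 1. Of 13 genes of the BCL2 family, which decides on mitochondrial cell death, 2 were higher at an unadjusted p under 0.05, with or without deplete kidney 1. The shares of all genes were 10.5% and 8.67%. With all kidneys the 2 were the death-promoting Bid (0.43, standard error 0.12, adjusted p = 0.198) and Bak1 (0.48, standard error 0.20, adjusted p = 0.308). Bcl2a1 (0.48) and Bcl2l11 (-0.28) had the next smallest p-values, and the median of the family was 0.10. Without deplete kidney 1 the median was 0.04 and Bak1 was at 0.26, while Bcl2a1 was at 0.28 without deplete kidney 2, and Bcl2l11 at -0.16 without deplete kidney 4 and -0.13 without replete kidney 4.

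Gdf15 and Gadd45a also answer to the integrated stress response, in which a block on translation raises the factor Atf4 and its targets. Of 12 genes of that response, 1 was higher at an unadjusted p under 0.05, where 10.5% of all genes were. It was Atf3, a transcription factor that many stresses induce. Its levels spanned 6.43 to 8.80 on the deplete and 5.56 to 5.89 on the replete diet. The difference was 1.76 (standard error 0.41, adjusted p = 0.165 from limma), and 1.30 without deplete kidney 1. With deplete kidney 3 left out Atf3 passed (adjusted p = 0.0776 from limma). With other single arrays left out it did not, and its adjusted p reached 0.371 without replete kidney 2. Herpud1 (-0.27), Ppp1r15a (0.37) and Trib3 (0.43) followed at adjusted p-values of 0.469 to 0.529. With deplete kidney 1 left out these were at -0.11, 0.11 and 0.15, and Trib3 was at 0.27 without replete kidney 4. The median of the 12 was 0.26, and 0.05 without deplete kidney 1.

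Genes of dividing cells were the most often higher of the lists of the cycle. Of 21 measured, 15 of them dim, 12 were higher and none was lower at an unadjusted p under 0.05, with a median of 0.47. Without deplete kidney 1 there were 12 higher and none lower, with a median of 0.35. Of all genes, 10.5% were higher and 7.95% lower at that p, or 8.67% and 6.34% without that kidney. The differences were 0.74 for Cdk1, the kinase that starts mitosis (standard error 0.16, adjusted p = 0.152 in limma), 1.50 for Ccna2, which encodes cyclin A2 (standard error 0.35, adjusted p = 0.163), 0.97 for Ccnb2 and 0.47 for the mitotic kinase Aurkb, all on dim probe sets. Of these named genes, the diets did not overlap for Cdk1 and Aurkb. Among all 21 of the list, 6 were higher and none was lower without overlap. Over all probe sets, rather than 1 per gene, 4.67% were higher in this way. Of 19 other regulators of the G1 phase, 3 were higher and none was lower at that p, Cdkn3 (on a dim probe set, 1.01, standard error 0.26, adjusted p = 0.178), Cks1b (0.34) and Ccnd2 (0.41), followed by Cdk4 (0.28, and 0.17 without deplete kidney 1). Without that kidney 2 of the 19 were higher and 1 was lower, and their median, 0.05 over all kidneys, turned to -0.01. The shares of all genes, with and without that kidney, are those given above. Cdkn1c, another inhibitor of the family of p21, differed by -0.41 (standard error 0.26, adjusted p = 0.497).

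**Figure D4:**
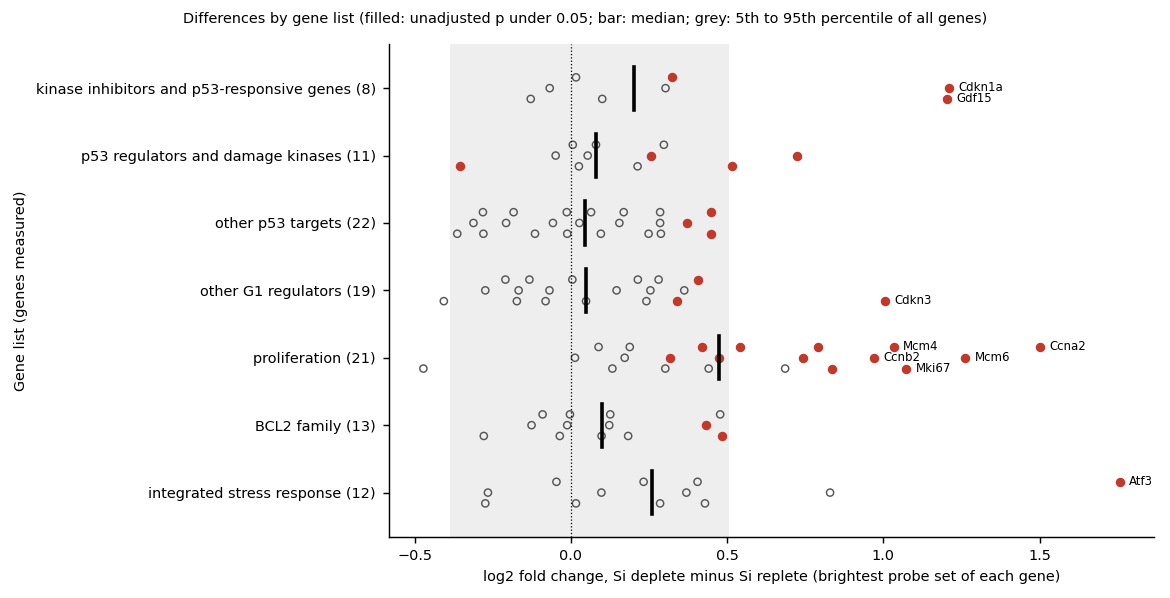
Difference in log2 level, deplete less replete, for each gene of 7 lists, from its brightest probe set; filled points have an unadjusted p under 0.05, bars are list medians, and the grey band holds the 5th to 95th percentile of all 14217 genes (-0.38 to 0.50). Cdkn1a and Gdf15 lie apart from the other 6 genes of their list, and genes of proliferation reach 1.50.

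The genes whose pattern over the 8 arrays was nearest to that of Cdkn1a (1388674_at) were Pcbp3, Kif11, Slc10a2, Nfil3 and Hmox1. Likeness was the root mean square difference between the log2 levels, each centred on its mean of 8 arrays, and was 0.45 to 0.53 for these 5. Nearest to Gdf15, which was taken as a reference after its values were seen, were Col6a1, Mmp2, Col6a3, Loxl1 and Col6a2, at 0.17 to 0.25. Col6a1, Col6a2 and Col6a3 encode the chains of collagen VI, Mmp2 a matrix protease and Loxl1 an enzyme that cross-links elastic fibres. None of these 10 passed at an adjusted p under 0.1 from limma.

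Defining markers of kidney were present in every array, with a mean log2 level of 10.9 to 11.3 over 11 genes of tubules and podocytes on the deplete and 11.2 to 11.3 on the replete diet. Of these 11, 10 had a lower mean on the deplete diet. Lower without overlap between the diets was 1, and the share of all genes was not computed for that. At an unadjusted p under 0.05, 2 were lower and none was higher, where 7.95% of all genes were lower and 10.5% higher. Only 1 was lower at that p without deplete kidney 1, where 6.34% of all genes were. At an unadjusted p under 0.05, 3 of 11 macrophage and myeloid markers were higher, as were 1 of 8 lymphocyte markers and 3 of 10 fibroblast and mural markers. Of all genes, 10.5% were higher at that p. The marker counts were 2, 1 and 3 without deplete kidney 1, where 8.67% of all genes were higher. The summed log2 levels of the myeloid markers ran from 70.8 to 77.1 on the deplete and from 64.8 to 74.8 on the replete diet, those of the lymphocyte markers 23.3 to 29.3 and 22.7 to 24.9, and those of the fibroblast and mural markers 75.6 to 84.5 and 73.3 to 77.7. All 3 ranges overlapped. The defining myeloid markers Cd68, Itgam and Cd163 were dim, as were 6 of the 8 lymphocyte markers. Of 7 endothelial markers none was higher and 1 was lower at an unadjusted p under 0.05, and of 4 blood markers 2 were lower. These counts were the same without deplete kidney 1. Lower at that p were 7.95% of all genes, and 6.34% without that kidney. The part of these cells in the levels of Gdf15, Cdkn1a and Mdm2 was not tested.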

How the data were processed

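RNA of 8 rat kidneys was hybridized to Affymetrix rat genome arrays, 4 per diet. The authors deposited log2 levels per probe set, made by gcRMA, which summarized each probe set with m-estimators (GCRMA 2.36.0 in the submitters' processing notes). Filters applied earlier are not given in the sources used, and intensities of single probes were not analysed here.

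Of 31099 probe sets, 57 controls were left out. The diets were compared as Si deplete minus Si replete with limma 3.58.1 in R 4.3.3 (lmFit and eBayes), with p-values adjusted by Benjamini and Hochberg over all 31042 and called under 0.1, the false discovery rate in the methods of the study. Members were read from this fit, and 12 exact permutation tests over 70 arrangements were added. The symbols of all 8 measured members matched RefSeq genes of GRCr8 by Entrez ID. Standard errors and 95% intervals are limma's. The code was tested on simulated data. The members and gene lists were chosen with earlier results of these data known. Named genes were all members, the 4 of each pathway list with the smallest p, the 5 nearest in pattern to Cdkn1a and, added later, to Gdf15; Cdkn1c, Itgam and Cd163 were named after their values were seen. Tried as alternatives were array weights, a robust or intensity-dependent prior, removal of dim probe sets, quantile normalization or median subtraction, blocking on replicate, omitting single arrays, a stricter threshold (0.05), q-values after Storey (lambda 0.5) and averaging the probe sets of a gene. The list counts without Si deplete replicate 1, and the shares of all genes and probe sets beside them, were added after seeing the data. Limma's p-values set each difference against the spread between these rats, with a variance drawn towards that of all probe sets. The 4 arrays per diet limit the precision. The highest correlation between 2 arrays was 0.9961. It does not show whether any 2 share a sample, as no known repeat of 1 sample was at hand for comparison.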

Additional observations from a re-analysis of the deposited data

Results flagged for a closer look

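For Cdkn2b, Si deplete replicate 4 stood apart from the other deplete kidneys, at 2.21 against 2.06 to 2.08 (gap over range 0.864 by Dixon's test for 4 values). This was 1 of 24 groups of 4 that were looked at, where chance gives about 1 in 20, and the probe set was dim.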

How the results depend on the processing

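No member was called lower under any alternative, and 1, Gdf15, was called higher only without Si deplete replicate 3 (0 to 1 with single arrays left out); it was called under no alternative that keeps all arrays, its q-value being 0.117. Of 199 recomputed values of members, 195 kept direction and side of the threshold and 3 turned sign: the dim Cdkn1a probe set without Si deplete replicate 1 (-0.0632, with a range of -0.0632 to 0.244 over single arrays left out), and Cdkn2a with array medians subtracted (-0.0409) and without Si replete replicate 1 (-0.0088, range -0.0088 to 0.0391). Gadd45b turned to -0.00902 with medians subtracted and to as low as -0.04 with single arrays left out (-0.0366 to 0.18), and Gadd45g ranged from -0.12 to 0.51. Blocking on the replicate number, Ccnb2 passed in limma (adjusted p = 0.0876). Without Si deplete replicate 3, Cdkn3, Ccna2 and Atf3 passed (adjusted p = 0.0792, 0.0627 and 0.0776). Averaging all probe sets of a gene gave 0.66 for Cdkn1a, 0.33 for Mdm2 and -0.24 for Cdkn1b, none of them called. Over all probe sets, 35 higher and 12 lower became 58 and 19 without dim ones, 0 and 0 at 0.05 (limma; 4638 at an unadjusted p under 0.05) and 121 and 51 by q-value; 90 were higher with the replicate block and 19 lower with medians subtracted. Single arrays left out gave 0 to 235 higher and 0 to 67 lower, the 0 coming in limma when Si deplete replicate 2, or any of Si replete replicates 1 to 3, was omitted (unadjusted p under 0.05 for 3334 to 3954); without Si deplete replicate 4 there were 2 and 2, without Si replete replicate 4 there were 11 and 3, and without Si deplete replicate 3 there were 235 and 67. The paper states that a rat of each group was taken on a given day, but the labels do not say whether replicate numbers follow days. Replicate numbers were therefore not read as pairs in the main fit. Deviations of same-numbered arrays correlated at 0.088, 0.09, 0.079 and -0.088, and 4 of 8 arrays matched their own number best. These values do not decide whether the arrays are paired. With 5 of 12 probe sets dim, differences in Cdkn2a and Cdkn2b may be out of reach of these arrays.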
